A study of Sus scrofa with 12 samples.

Results

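The Notch receptors NOTCH1, NOTCH2 and NOTCH3, the ligands DLL1, JAG1 and JAG2, and the HES and HEY genes HES1, HES6, HEY1 and HEYL were followed across RNA-seq libraries of pig muscle satellite cells, which are stem cells that lie along muscle fibres and rebuild them. These 10 genes were taken by their symbols from the 31908 genes of the deposited table, and each had 1 entry. All 10 passed the filter on low values, which asked for 1 FPKM in 3 libraries and which 11636 genes passed. FPKM scales reads to gene length and to the library total, so levels of different genes can be set side by side.

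The series held 4 groups of 3 libraries: control cells in proliferation (0h), control cells at 60h of differentiation, and the same 2 stages of an arm named CBP. That arm was read as cells given SGC-CBP30, a bromodomain inhibitor of CBP and its relative p300, both acetyltransferases, because the treatment protocol names it, at 5 uM/ml as the labels write the dose, for 48 h in proliferation and 60 h in differentiation. The same protocol text stands on the control samples, and the arms are given under a genotype tag (WT_0h, CBP_0h, WT_60h and CBP_60h), so every value for the inhibitor rests on this reading. The control treatment is not stated, nor whether cells of the 60h stage were exposed in proliferation too. All groups carry the cell line label C3H and a muscle satellite cell label, and the control arm is WT in the labels and NC in the table. Nothing in the labels says that the replicates came from separate cultures or animals, so the p-values measure the spread between these libraries, which may be technical.

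Notch receptors are single-pass membrane proteins that are activated by DLL or JAG ligands on a neighbouring cell, after which ADAM proteases and gamma-secretase release the intracellular domain. This domain joins RBPJ and a MAML protein on DNA, recruits the acetyltransferases CBP and p300, and turns on genes of the HES and HEY families, which code for basic helix-loop-helix repressors. In skeletal muscle, Notch signalling is known to keep satellite cells in an undifferentiated state and to restrain MYOD1 and MYOG, whereas HES6 is known as an atypical member that opposes HES1 and accompanies myogenic differentiation.

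The libraries held 16095335 to 19155240 reads, recovered from the steps of the FPKM values. MYOG, the factor that drives terminal differentiation, had a mean of 343 FPKM in control cells at 0h, 28.5 in inhibitor-treated cells at 0h, 589 in control cells at 60h and 448 in inhibitor-treated cells at 60h. PAX7, the marker of satellite cells, had means of 14.4, 8.88, 7.57 and 12.3 FPKM in the same order, and MYOD1 had 22.3, 6.62, 5.19 and 3.24 FPKM. All 9 listed markers of satellite cells and myoblasts had a mean of 1 FPKM or more in every group. Of 6 immune markers, PTPRC, CD163 and CSF1R reached at most 0.0942 FPKM in any library and CD3E was listed at 0, while CD68 and CD14, which are not limited to immune cells, reached 4.99 and 2.52 FPKM.

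Most Notch genes changed with the inhibitor, and for 7 of them the response differed between the stages. At 0h, 8 of the 10 genes were lower in inhibitor-treated cells and 1 (NOTCH2) was higher by limma, while HES1 was not called. Of all genes tested, 62.3% were called in this comparison, 44.2% higher and 18.1% lower. After rescaling to the median of all genes, the call of NOTCH2 was lost, and of all 11636 genes 2958 were higher and 3131 lower, against 5148 and 2102 before. At 60h, 6 of the 10 were higher (NOTCH1, NOTCH2, DLL1, HES1, HES6 and HEYL), JAG1 and JAG2 were lower, and NOTCH3 and HEY1 were not called. Here 71.6% of all genes were called, 44.7% higher and 27.0% lower, so the 8 calls lie near the background. The libraries of the 2 groups did not overlap for 9 of the 10 genes at 0h and 8 at 60h, beside 66.8% and 74.3% of all genes. The calls of NOTCH2, HES1 and HEYL at 60h were lost when the libraries were rescaled to the median of all genes, which left 5. The median log2 change of the 10 genes was -0.62 at 0h and 0.17 at 60h, beside 0.12 and 0.10 over all genes. Every log2 change refers to log2(FPKM + 1), where the added 1 shrinks the changes of low genes, and a call means a limma adjusted p under 0.05 over all 11636 genes.

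**Figure D1:**
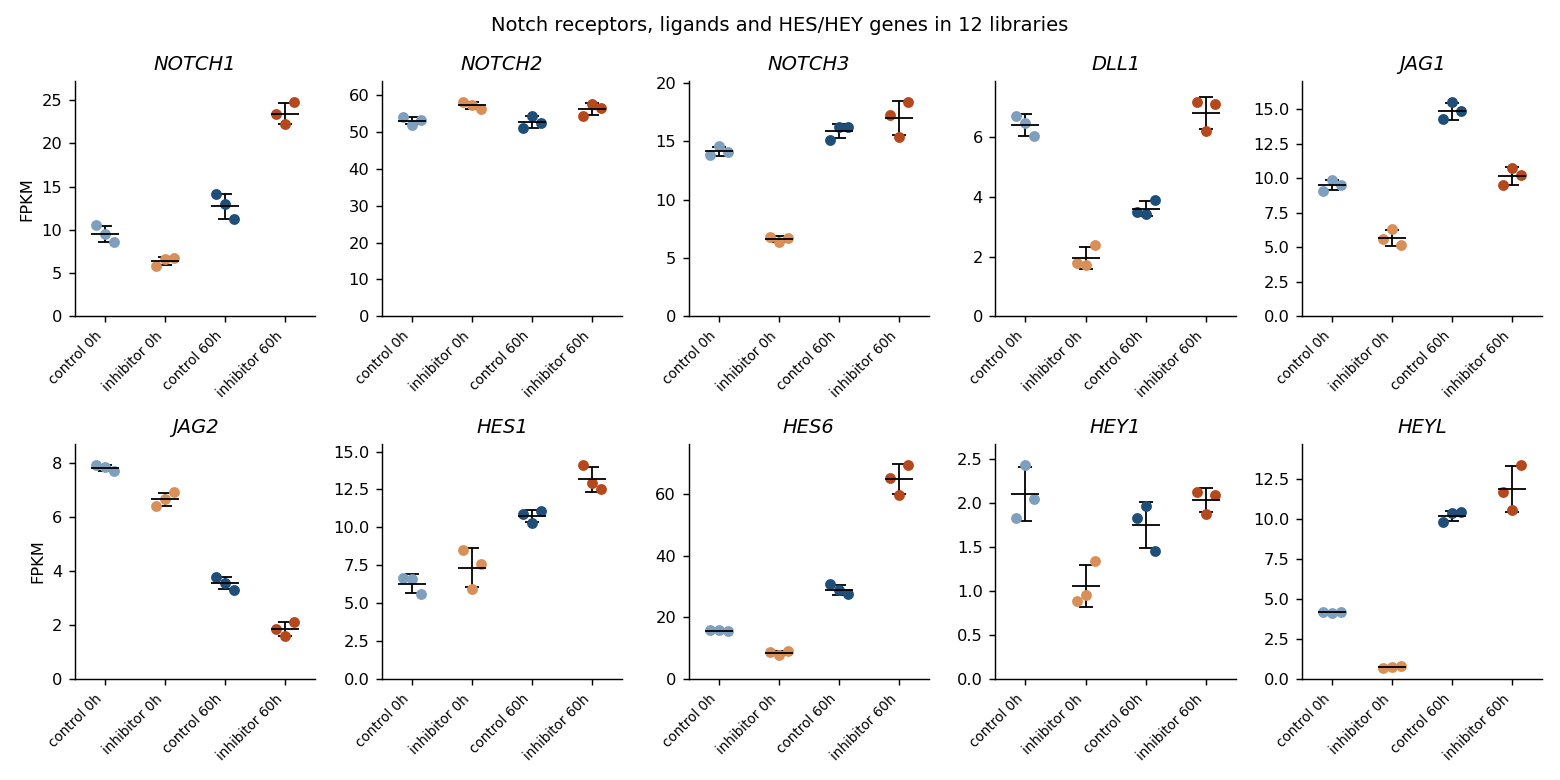
FPKM (y axis, linear and from 0, a scale of its own per gene) of the 10 Notch genes in the 4 groups (x axis). Each point is 1 library, and the lines give the mean and SD of 3 libraries. The inhibitor 0h group had the lowest mean for 7 genes, from HES6 at 8.50 to HEYL at 0.775 FPKM, while HES6 reached 64.7 FPKM in the inhibitor 60h group.

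NOTCH1, a receptor needed to hold satellite cells in quiescence, moved down at 0h and up at 60h. Control cells at 0h had 10.5, 9.49 and 8.56 FPKM, and inhibitor-treated cells at 0h had 5.86, 6.66 and 6.73. At 60h the control libraries had 14.1, 12.9 and 11.2 FPKM, and the inhibitor libraries had 23.3, 22.2 and 24.7. No 2 of the 4 groups overlapped, and the inhibitor arm held both the lowest and the highest group. At 0h the inhibitor-treated cells were 1.48-fold lower (log2 change -0.50 ± 0.085 SE, limma's adjusted p = 0.00028), and at 60h they were 1.84-fold higher (log2 change 0.83, adjusted p = 2.55e-06).

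NOTCH2, a second receptor of quiescent and activated satellite cells, was the most abundant receptor in every library and the least variable of the 10 genes between groups. It lies on chromosome 4, 100951522 to 101152348 in Sscrofa11.1, and its span from start to end overlaps that of the reference gene LOC102160224. Whether the 2 genes share exons, or reads in the counting, was not tested, and the strand setting is not given in the sources used here. Control libraries at 0h had 54.0, 51.9 and 53.0 FPKM, and inhibitor libraries had 57.9, 57.3 and 56.2. At 60h the control libraries had 51.0, 54.2 and 52.4 FPKM, and the inhibitor libraries had 54.4, 57.5 and 56.5. The inhibitor libraries lay above the control libraries at each stage, by 1.08-fold at 0h (log2 change 0.11, limma adjusted p = 0.00899) and 1.07-fold at 60h (log2 change 0.09, adjusted p = 0.0149). These differences have the size of the median over all genes (0.12 and 0.10), and after rescaling to that median they were -0.03 at both stages and not called. The call at 60h was also lost without control 60h replicate 1 (adjusted p = 0.0643) or inhibitor 60h replicate 2 (adjusted p = 0.0609), and that at 0h with TPM scaling (0.07, adjusted p = 0.0796).

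NOTCH3, a receptor known from satellite cells and from pericytes and vascular smooth muscle, differed with the inhibitor at 0h. It lies on chromosome 2, 62364507 to 62402348, and its span overlaps that of the reference gene LOC100628051. Shared exons or reads were again not tested. At 0h the control libraries had 13.8, 14.6 and 14.1 FPKM, and the inhibitor libraries had 6.82, 6.34 and 6.73. The control libraries at 60h had 15.1, 16.2 and 16.2 FPKM, and the inhibitor libraries had 17.3, 15.4 and 18.3. Inhibitor-treated cells at 0h stood apart below the other 9 libraries, and the 2 groups at 60h overlapped. NOTCH3 fell 2.13-fold with the inhibitor at 0h (log2 change -0.99 ± 0.056 SE, limma's adjusted p = 2.86e-08). At 60h its log2 difference was 0.09 (95% interval -0.03 to 0.21, adjusted p = 0.155), which was called once inhibitor 60h replicate 2 was left out (0.16, adjusted p = 0.0107).

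Summed over the 3 receptors, the level was 76.6 ± 1.43 FPKM (SD, n = 3) in control and 70.2 ± 0.474 in inhibitor-treated cells at 0h, and 81.1 ± 1.94 and 96.5 ± 2.58 FPKM at 60h. NOTCH2 made up 69.1% of this sum in control cells at 0h, 81.4% in inhibitor-treated cells at 0h, 64.8% in control cells at 60h and 58.2% in inhibitor-treated cells at 60h. The NOTCH1 share was 12.4%, 9.15%, 15.7% and 24.3% in the same order, and the NOTCH3 share was 18.5%, 9.45%, 19.5% and 17.6%. The NOTCH1 shares of the 4 groups did not overlap. For NOTCH3, the inhibitor 0h libraries (9.03% to 9.66%) lay below all others (16.2% to 20.3%). Transcripts of NOTCH4, the receptor best known from endothelium, reached at most 0.260 FPKM in any library and were not tested.

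DLL1, a ligand made by differentiating myoblasts that activates Notch in their neighbours, was lower with the inhibitor at 0h and higher with it at 60h. The gene is on chromosome 1, 198815 to 211346. At 0h the control libraries had 6.72, 6.48 and 6.03 FPKM, and the inhibitor libraries had 1.78, 1.72 and 2.40. At 60h the order was turned, with control libraries at 3.49, 3.43 and 3.90 FPKM and inhibitor libraries at 7.17, 6.21 and 7.10. Inhibitor-treated cells at 60h overlapped control cells at 0h, and the other 2 groups lay lower. DLL1 fell 3.26-fold with the inhibitor at 0h (log2 change -1.33 ± 0.085 SE, limma's adjusted p = 9.37e-08) and rose 1.89-fold with it at 60h (0.76, adjusted p = 5.96e-06).

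JAG1, a ligand that is also a known target of Notch signalling, was lower with the inhibitor at each stage. Its position is chromosome 17, 19591248 to 19629659. The control libraries had 9.12, 9.86 and 9.55 FPKM at 0h and 14.3, 15.5 and 14.8 at 60h. The inhibitor libraries had 5.62, 6.32 and 5.17 FPKM at 0h and 9.52, 10.8 and 10.2 at 60h, so the treated cells at 60h overlapped the control cells at 0h. The inhibitor lowered JAG1 1.67-fold at 0h (log2 change -0.65 ± 0.063 SE, limma's adjusted p = 3.07e-06) and 1.46-fold at 60h (-0.51, adjusted p = 1.57e-05). The difference between these 2 responses was 0.15 (95% interval -0.05 to 0.34, limma adjusted p = 0.196), and it was called without inhibitor 0h replicate 2 (0.21, adjusted p = 0.0464).

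JAG2, the second Jagged ligand, fell with the inhibitor and fell again from 0h to 60h. Control libraries at 0h had 7.92, 7.86 and 7.70 FPKM, and inhibitor libraries had 6.42, 6.66 and 6.91. At 60h control libraries had 3.76, 3.58 and 3.31 FPKM, and inhibitor libraries had 1.86, 1.59 and 2.13. The 4 groups did not overlap, and the inhibitor 60h libraries were the lowest. The difference at 0h was 1.17-fold (log2 change -0.20, limma adjusted p = 0.0174) and was no longer called without inhibitor 0h replicate 1 (adjusted p = 0.0603). At 60h it was 1.91-fold (log2 change -0.67, SE 0.066, adjusted p = 1.79e-06).

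The summed level of the 3 ligands was 23.7 ± 0.469 FPKM (SD, n = 3) in control and 14.3 ± 0.454 in inhibitor-treated cells at 0h, and 22.0 ± 0.488 and 18.9 ± 0.532 at 60h. All inhibitor libraries lay below the control libraries of their stage. DLL1 made up 27.0% of the ligand transcripts in control cells at 0h, 13.7% in inhibitor-treated cells at 0h, 16.4% in control cells at 60h and 36.2% in inhibitor-treated cells at 60h. JAG2 had 33.0% and 46.5% of the sum at 0h, in control and treated cells, and 16.1% and 9.84% at 60h. JAG1 had 40.0% and 39.8% at 0h, where the groups overlapped, and 67.5% and 54.0% at 60h. DLL4 reached at most 0.0970 FPKM in any library and was not tested.

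**Figure D2:**
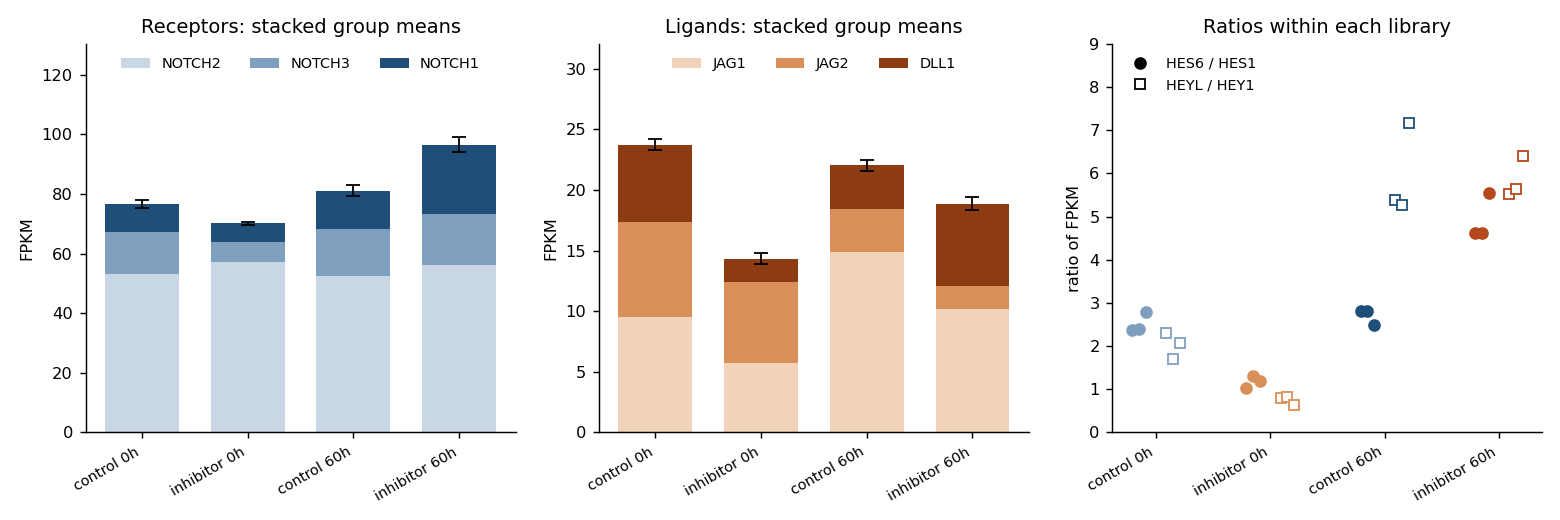
Left and middle, stacked group means (FPKM, y axis from 0) of the 3 receptors and the 3 ligands in the 4 groups (x axis), with the SD of the sum over 3 libraries as the bar. Right, HES6 over HES1 (filled circles) and HEYL over HEY1 (open squares) in each library. NOTCH1 takes 24.3% and DLL1 36.2% of their sums in inhibitor-treated cells at 60h.

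HES1, the classical Notch-induced repressor, was not called with the inhibitor at 0h. The gene is on chromosome 13, 131135970 to 131137865, and its values rest on 157 to 385 reads per library. At 0h the control libraries had 6.67, 6.63 and 5.60 FPKM, and the inhibitor libraries had 8.53, 5.94 and 7.60. At 60h they had 10.9, 10.3 and 11.1 in control and 14.1, 12.9 and 12.5 in treated cells. The groups overlapped at 0h and not at 60h. The log2 difference at 0h was 0.19 (95% interval -0.03 to 0.40, limma adjusted p = 0.125), and without inhibitor 0h replicate 2 it was called (0.31, adjusted p = 0.0047). HES1 was 1.23-fold higher at 60h (log2 change 0.27, limma adjusted p = 0.0288). This call was lost after rescaling to the median of all genes (0.15, adjusted p = 0.184), without the filter on low values (adjusted p = 0.0652), and without control 60h replicate 1 or 2 or inhibitor 60h replicate 1 or 2 (adjusted p from 0.0503 to 0.101).

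HES6 had the highest mean level of the 4 HES and HEY genes in every group. It lies on chromosome 15, 137785808 to 137787689. At 0h the control libraries had 15.8, 15.9 and 15.6 FPKM, and the inhibitor libraries had 8.65, 7.77 and 9.06. At 60h the control libraries had 30.7, 28.9 and 27.5 FPKM, and the inhibitor libraries had 65.3, 59.6 and 69.3. The 4 groups did not overlap, and the treated cells at 60h had more HES6 than NOTCH2 transcript per length. HES6 fell 1.85-fold with the inhibitor at 0h (log2 change -0.82 ± 0.061 SE, limma's adjusted p = 3.33e-07) and rose 2.23-fold with it at 60h (1.13, adjusted p = 9e-09).

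HEY1, a Notch target that acts with HEYL to keep satellite cells undifferentiated, had the lowest counts of the 10 genes, with 41 to 112 reads per library. It lies on chromosome 4, 56859640 to 56863807. At 0h the control libraries had 1.83, 2.43 and 2.05 FPKM, and the inhibitor libraries had 0.891, 0.951 and 1.34. At 60h they had 1.83, 1.96 and 1.45 in control and 2.13, 1.88 and 2.09 in treated cells. Treated cells at 0h lay below the other 9 libraries, which overlapped one another. HEY1 was 1.98-fold lower with the inhibitor at 0h (log2 change -0.59 ± 0.10 SE, limma's adjusted p = 0.000314). At 60h its log2 difference was 0.14 (95% interval -0.08 to 0.37, adjusted p = 0.227), which was not called.

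HEYL had the largest change with the inhibitor at 0h of the 10 genes. Its position is chromosome 6, 95442655 to 95459597. The control libraries had 4.20, 4.15 and 4.22 FPKM at 0h, and the inhibitor libraries had 0.700, 0.773 and 0.850, from 45 to 50 reads each. At 60h the control libraries had 9.84, 10.4 and 10.4 FPKM, and the inhibitor libraries had 11.7, 10.6 and 13.4. The treated cells at 0h were the lowest group and the treated cells at 60h the highest. HEYL fell 5.41-fold with the inhibitor at 0h (log2 change -1.55 ± 0.069 SE, limma's adjusted p = 3.51e-09), and 136 of the 11636 genes had a larger fall. At 60h it was 1.16-fold higher (0.20, limma adjusted p = 0.0224). That call was lost after rescaling to the median of all genes (0.08, adjusted p = 0.309), with only the 2 groups in the fit (adjusted p = 0.0502), and without control 60h replicate 1 (adjusted p = 0.0733) or inhibitor 60h replicate 3 (0.11, adjusted p = 0.104).

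Within libraries, HES6 was 2.52 ± 0.232 times HES1 (SD, n = 3) in control cells at 0h, 1.17 ± 0.148 in treated cells at 0h, 2.70 ± 0.193 in control cells at 60h and 4.93 ± 0.533 in treated cells at 60h. The 2 control groups overlapped in this ratio, and the treated groups lay below and above them. HEYL was 2.02 ± 0.296 times HEY1 in control and 0.745 ± 0.0953 in treated cells at 0h, and 5.94 ± 1.07 and 5.85 ± 0.488 at 60h, where the groups overlapped.

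NOTCH3 and HEYL are also known from pericytes and smooth muscle. In these bulk libraries, fewer cells of a type and less RNA per cell cannot be told apart. The sum of 11 markers of pericytes and smooth muscle was 4517 to 4625 FPKM in control and 1669 to 1734 in treated cells at 0h. At 60h it was 4648 to 4803 in control and 3027 to 3207 in treated cells. Most of this sum came from ACTA2, TAGLN and DES (2571, 991 and 788 FPKM in control cells at 0h), and DES is shared with muscle cells. The group means of KCNJ8 and ABCC9 were at most 0.304 and 0.488 FPKM. Of the 11 markers 9 were tested, and 9 were lower with the inhibitor at 0h, while at 60h 7 were lower and 1 was higher. Beside these and the following marker counts, 44.2% of all genes were higher and 18.1% lower at 0h. At 60h 44.7% of all genes were higher and 27.0% lower. None of the 11 was at 0 in every library of a group, and RGS5, a pericyte marker, had means of 0.359, 0.146, 4.57 and 8.44 FPKM in control and treated cells at 0h and control and treated cells at 60h. The 9 satellite cell and myoblast markers were all lower with the inhibitor at 0h, and their sum was 2082 to 2089 FPKM in control and 761 to 810 in treated cells. At 60h 4 of the 9 were higher and 5 lower, with sums of 2116 to 2269 and 1519 to 1645 FPKM. The sum of 8 fibroblast markers was 846 to 873 FPKM in control and 473 to 492 in treated cells at 0h, and 3149 to 3299 and 1905 to 2090 at 60h. COL1A1 made up most of this sum (2854 and 1551 FPKM at 60h), and of the 8 markers 1 was higher and 5 were lower at 0h, and 3 were higher and 3 lower at 60h, among the higher PDGFRA (10.3 and 20.8 FPKM). The sum of 12 endothelial markers was 14.5 to 14.8 FPKM in control and 12.4 to 13.7 in treated cells at 0h. At 60h it was 20.4 to 23.0 and 11.5 to 12.3 FPKM, and ERG, with means of 14.3 and 3.07, made up most of the control sum. FLT1 (2.18 and 3.79 FPKM) and EGFL7 (2.05 and 3.22) went the other way at 60h. Of the 4 endothelial markers tested, 1 was lower and 3 were not called at 0h, and 2 were higher and 2 lower at 60h. Between 7 and 9 of the 12 had a mean under 1 FPKM in each group. Of 6 Schwann cell markers 5 had an entry, with sums of 101 to 104 FPKM in control and 103 to 115 in treated cells at 0h. At 60h the sums were 61.4 to 65.6 and 72.1 to 73.4 FPKM. Nearly all of this was ERBB3 (102, 111, 63.7 and 72.5 FPKM in control and treated cells at 0h, then at 60h), and 4 had means under 1 FPKM. The 1 Schwann cell marker tested was called higher with the inhibitor at both stages. The part of these cell types in the Notch values was not tested.

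Whether the response to the inhibitor differed between the stages was tested as the effect at 60h minus that at 0h. This difference was called for 7 of the 10 genes, 6 higher and 1 lower, beside 50.9% of all genes, 24.3% higher and 26.7% lower. It was 2.09 for DLL1 (SE 0.12, limma adjusted p = 6.1e-08), 1.95 for HES6 (adjusted p = 7.38e-09), 1.74 for HEYL, 1.34 for NOTCH1, 1.08 for NOTCH3, 0.74 for HEY1 and -0.47 for JAG2 on the log2 scale. Only 37 of 11636 genes had a larger positive value than DLL1 and 45 a larger one than HES6. Over the settings tried, this difference reached 2.51 for HEYL and at most 2.04 for HES6, so the order of these genes depends on the setting. In the main fit it was -0.01 for NOTCH2 (95% interval -0.11 to 0.08) and 0.08 for HES1 (95% interval -0.23 to 0.39). NOTCH1, DLL1, HES6 and HEYL were called lower at 0h and higher at 60h, which are 4 of 10 genes beside 3.15% of all genes tested (8.57% were called in opposite directions either way), the call of HEYL at 60h being the one that did not hold in every setting. JAG1 and JAG2 were called lower at both stages, beside 12.1% of all genes. Since the labels give 48 h of compound in proliferation and 60 h in differentiation, the difference of responses cannot separate stage from exposure.

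**Figure D3:**
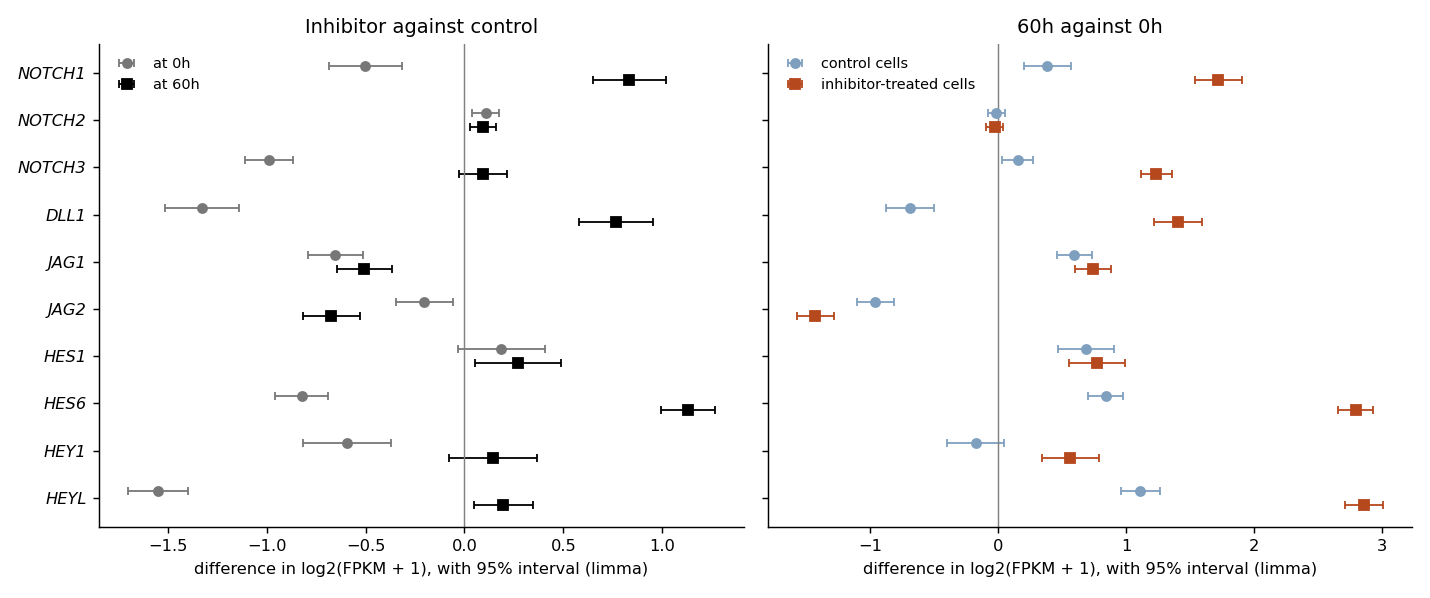
Differences in log2(FPKM + 1) (x axis) for the 10 genes (y axis) with 95% intervals from limma. Left, inhibitor against control at 0h (circles) and 60h (squares). Right, 60h against 0h in control (circles) and inhibitor-treated cells (squares). NOTCH1, DLL1 and HES6 lie left of 0 at 0h and right of 0 at 60h, with no interval touching 0.

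From 0h to 60h, 8 of the 10 genes were called in control cells, 6 higher and 2 lower, beside 66.8% of all genes (28.8% higher and 38.0% lower), and 8 had groups that did not overlap, beside 70.8%. HEYL rose 2.44-fold (log2 change 1.11 ± 0.069 SE, limma's adjusted p = 3.33e-08), HES6 rose 1.84-fold (0.84), HES1 rose 1.71-fold (0.69), JAG1 rose 1.56-fold (0.59) and NOTCH1 rose 1.34-fold (0.38). NOTCH3 was 1.12-fold higher (0.15, adjusted p = 0.0292), a call that was lost without the filter on low values (adjusted p = 0.054) and without control 0h replicate 1 or 3 or control 60h replicate 2 or 3 (adjusted p from 0.0673 to 0.0858). JAG2 fell 2.20-fold (log2 change -0.96, adjusted p = 8.65e-08) and DLL1 fell 1.78-fold (-0.69, adjusted p = 1.8e-05). The intervals of NOTCH2 (-0.08 to 0.05, 95%) and HEY1 (-0.40 to 0.05) held 0.

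In inhibitor-treated cells the change of stage was called for 9 of the 10 genes, 8 higher and 1 lower, beside 72.7% of all genes (31.3% higher and 41.5% lower), and 9 had groups that did not overlap, beside 75.2%. HEYL rose 15.4-fold (log2 change 2.86 ± 0.069 SE, limma's adjusted p = 5.25e-12) and HES6 rose 7.62-fold (2.79, adjusted p = 2.37e-12). NOTCH1 rose 3.65-fold (1.72), DLL1 3.47-fold (1.40), NOTCH3 2.56-fold (1.23), HEY1 1.92-fold (0.56), HES1 1.79-fold (0.77) and JAG1 1.79-fold (0.74). JAG2 fell 3.58-fold (-1.43), and NOTCH2 had a log2 difference of -0.03 (95% interval -0.09 to 0.04) that was not called. DLL1 went down with the stage in control cells and up in treated cells. The stage comparisons use the same 4 groups as the inhibitor comparisons, so they are another view of the same values. In the treated arm the labels give 48 h of compound in proliferation and 60 h in differentiation. Stage and length or timing of exposure cannot be told apart there.

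As a description, each gene was set beside the tested genes with a symbol and a mean of at least 5 FPKM whose log2 values followed it most closely over the 12 libraries. These correlations reflect the 4 groups, since libraries of a group share their treatment. NOTCH1 and HES6 were both closest to MMP15 (Pearson r = 0.988 and 0.997), and the next for NOTCH1 was HES6 itself (r = 0.987). KLF2 followed HES6 (r = 0.995). For NOTCH3 the closest were RALGPS2 (r = 0.996) and MEGF10 (r = 0.995), the latter a satellite cell receptor. HEYL lay closest to ACTN2 (r = 0.996), the alpha-actinin of the sarcomere, and FYN (r = 0.995). JAG1 was followed by PDLIM5 (r = 0.994) and MYO1D (r = 0.989), JAG2 by PRELP (r = 0.995) and UCP2 (r = 0.993), DLL1 by PLXNA1 (r = 0.980) and LHFPL6 (r = 0.972), HES1 by CEP170 (r = 0.982) and CHM (r = 0.979), and HEY1 by RNF217 (r = 0.923) and UBE2V2 (r = 0.916). For NOTCH2 the closest were RPP25L (r = 0.935) and SNX19 (r = 0.925), but after rescaling to the median of all genes these fell to 0.097 and 0.179. Among the 10 genes themselves, NOTCH3 and HEYL had r = 0.957 and JAG2 and HES1 had r = -0.947.

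Beyond these 10, a list of 61 other genes of the Notch pathway was examined, of which all 61 were in the table and 48 passed the filter. With the inhibitor at 0h, 19 of the 48 were higher, 13 lower and 16 not called, with a median log2 change of 0.08. At 60h, 25 were higher, 11 lower and 12 not called, with a median of 0.13. Of all genes, 44.2% were higher and 18.1% lower at 0h, with a median of 0.12. At 60h 44.7% of all genes were higher and 27.0% lower, with a median of 0.10. For the difference of the 2 responses, 17 were higher, 9 lower and 22 not called, beside 24.3% and 26.7% of all genes. With the stage, 20 were higher and 17 lower in control cells, beside 28.8% and 38.0% of all genes, and 23 were higher and 13 lower in treated cells, beside 31.3% and 41.5%.

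LFNG, a fringe glycosyltransferase that alters which ligands a Notch receptor responds to, had the largest change of the list at 60h on the log2(FPKM + 1) scale, though not as a ratio of means, where DTX3L changed 5.01-fold. Its libraries had 6.67, 7.20 and 6.86 FPKM in control and 29.6, 27.6 and 28.9 in treated cells, a 4.16-fold rise (log2 change 1.91 ± 0.048 SE, limma's adjusted p = 1.52e-11). At 0h the control libraries had 13.0, 13.3 and 12.4 FPKM and the treated libraries 15.8, 14.8 and 13.9. That smaller difference (0.19, adjusted p = 0.00521) was not called after rescaling to the median of all genes (0.06, adjusted p = 0.349), and the difference of the 2 responses was 1.72 (adjusted p = 2.98e-09).

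The other tested HES and HEY relatives did not turn with the stage. HEY2 had means of 4.71 in control and 2.17 FPKM in treated cells at 0h (log2 change -0.85), and 7.18 and 3.08 at 60h (-1.01). HES4 had means of 1.22 and 0.579 FPKM at 0h (-0.50) and 3.21 and 1.36 at 60h (-0.83). BHLHE40, a related repressor listed with them, had 23.2 and 18.2 FPKM at 0h (-0.33) and 137 and 102 at 60h (-0.43). All 3 were called lower with the inhibitor at both stages (limma adjusted p of at most 0.000143) and kept that call in every setting. Among the tested genes of the list, BHLHE40 had the largest rise from 0h to 60h in log2(FPKM + 1) (2.51 in control and 2.42 in treated cells). As a ratio of means, the untested DTX1 rose more in control cells, 7.97-fold from 0.0495 to 0.395 FPKM, against 5.92-fold for BHLHE40. HES5 was listed at 0 in all 12 libraries, and HES2 and HES7 reached at most 0.105 and 0.245 FPKM.

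In the nuclear complex that Notch forms, RBPJ, its DNA-binding partner, had means of 29.7 FPKM in control and 26.7 in treated cells at 0h (log2 change -0.15, limma adjusted p = 0.0105), and 14.5 and 20.3 at 60h (0.46, adjusted p = 1.28e-06). RBPJ fell with the stage in each arm, by 0.99 on the log2 scale in control cells and by 0.38 in treated cells. The coactivator MAML1 had 6.89 and 8.25 FPKM at 0h (0.23, not called after rescaling, 0.11) and 7.47 and 9.80 at 60h (0.35). CREBBP, which codes for CBP, had 8.13 and 9.97 FPKM at 0h (0.27, adjusted p = 0.00129) and 8.58 and 14.0 at 60h (0.65, adjusted p = 5.79e-07). EP300, which codes for p300, had 14.3 and 17.7 FPKM at 0h (0.29) and 15.7 and 19.3 at 60h (0.29), each called higher.

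Ubiquitin ligases of the pathway went in both directions. DTX4, a Deltex protein, was lower with the inhibitor at 0h (-0.49) and higher at 60h (0.52), with a difference of 1.01 between the 2 (limma adjusted p = 5.26e-07), and rose with the stage by 1.65 in treated cells. DTX3L was lower at 60h (-0.99, from a mean of 1.63 to 0.325 FPKM) and had a difference between responses of -1.06. Without its control 60h libraries (1.51, 1.65 and 1.73 FPKM), where it was highest, DTX3L would not have passed the filter on low values. The filter therefore favoured a fall from that group. NEURL1, a ligase of the Neuralized type that acts on ligands, was lower with the inhibitor at 0h (-0.64) and at 60h (-0.67), and rose with the stage in control (1.02) and treated cells (0.99). With the stage, NEURL1B fell in control (-1.11) and treated cells (-0.80), and DTX3 likewise fell in control (-0.57) and treated cells (-0.99). Opposite to DTX4, DTX3 was higher with the inhibitor at 0h (0.25) and lower at 60h (-0.18), calls lost in 1 and 4 settings. Its difference between responses was -0.43 (limma adjusted p = 0.00205). NEURL1B was higher with the inhibitor at 60h (0.51) and was not called at 0h (0.20). Among the Groucho co-repressors, TLE3 was lower with the inhibitor at 0h (-0.65) and at 60h (-0.31). TLE4 was higher at 60h (0.82) and at 0h (0.16, a call lost in 6 settings, among them the rescaling and leaving out control 0h replicate 2 or 3 or inhibitor 0h replicate 1, with adjusted p up to 0.370), with a difference between responses of 0.66. DLK2, a ligand-like membrane protein, was lower with the inhibitor at 0h (-0.89, from 2.44 to 0.850 FPKM). It fell with the stage in control (-1.42, 8.87-fold) and treated cells (-0.77, 10.9-fold). DLK2 passed the filter on low values through control cells at 0h (3.06, 1.99 and 2.28 FPKM), where it was highest. Elsewhere only inhibitor 0h replicate 2 reached 1 FPKM (1.08), so the filter favoured falls from control cells at 0h. At 60h DLK2 had means of 0.275 FPKM in control and 0.0781 in treated cells, groups that did not overlap, with a log2 difference of -0.24 that was not called (limma adjusted p = 0.0691) but was called in 6 of 19 other settings.

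**Figure D4:**
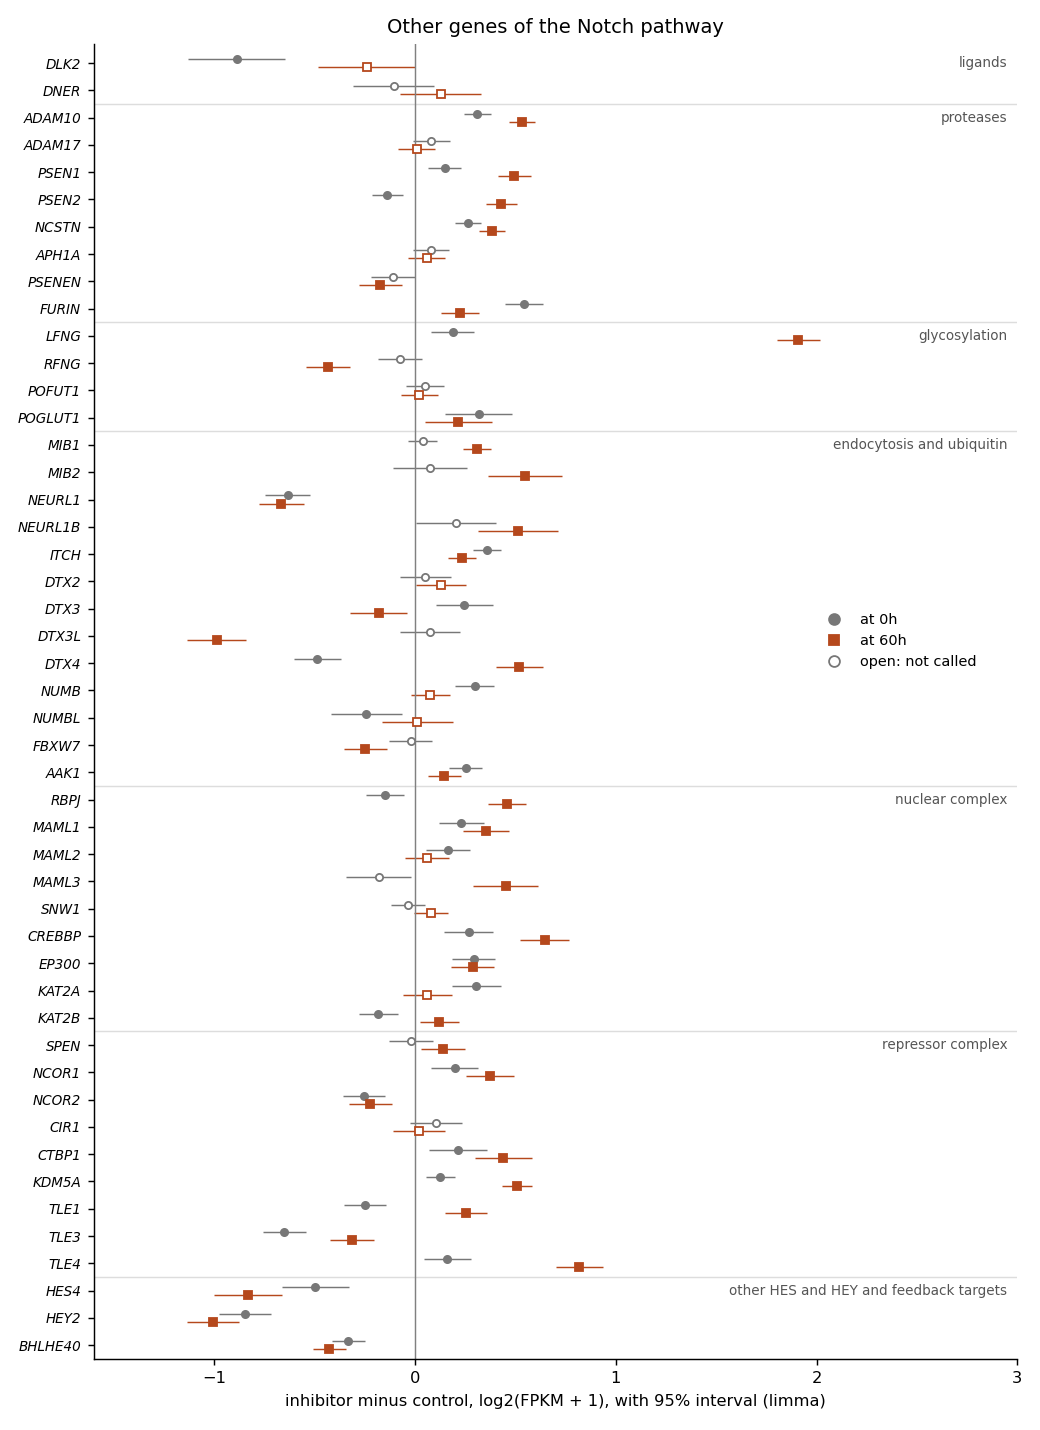
Inhibitor minus control in log2(FPKM + 1) (x axis) for the 48 tested pathway genes (y axis, grouped by role) at 0h (circles) and 60h (squares), with 95% intervals from limma; open symbols were not called. LFNG at 60h lies farthest right at 1.91, and HES4, HEY2 and BHLHE40 lie left of 0 at both stages.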

How the data were processed

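The authors deposited 1 table of FPKM values for 12 libraries. The submitters' processing notes name Trimmomatic, featureCounts and the pig build Sscrofa11.1. Alignment tool, annotation version and strandedness of the counting are not stated in the sources used here. The table gave 16801 gene symbols and the reference table a further 687, and positions came from the reference table of Sscrofa11.1. NOTCH1 and JAG2 are given here without a position, since that table assigns them no chromosome.

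Whole reads were recovered from the FPKM steps for 22521 genes (100% of values within 0.01 reads) and used for depth and 1 alternative. Within groups, replicates differed beyond sampling noise (chi-square over degrees of freedom 2.11 to 4.46). Genes at 1 FPKM or more in 3 libraries were kept, log2(FPKM + 1) entered 1 limma model (version 3.58.1, R 4.3.3) of the 4 groups with a trended spread, and p-values (two-sided) had Benjamini-Hochberg adjustment over 11636 genes. The script was tested on simulated data. Folds are ratios of mean FPKM.

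The genes, lists and tests were chosen with earlier results of these data known. Named were all 10 genes, up to 4 called pathway genes with the largest change per comparison, RBPJ, MAML1, CREBBP and EP300, the 2 most similar genes per member, and MYOD1, MYOG and PAX7. HES4, HEY2, BHLHE40 and the low genes were also named after their values were seen. Alternatives were a pseudocount of 0.1, no filter, median-of-ratios scaling (rescaling to the median of all genes), TPM scaling, only the groups compared, a replicate block, recovered reads scaled to the library total, and leaving out each library.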

Additional observations from a re-analysis of the deposited data

Results flagged for a closer look

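For 7 of the 10 Notch genes the response to the inhibitor at 60h differed from that at 0h by a test of the difference itself (limma, adjusted over all genes), which was also called for 50.9% of all genes. The difference, as the effect at 60h minus that at 0h in log2(FPKM + 1), was 2.09 for DLL1 (95% interval 1.83 to 2.36), 1.95 for HES6 (1.76 to 2.14), 1.74 for HEYL (1.53 to 1.96) and 1.34 for NOTCH1 (1.07 to 1.60). It was 1.08 for NOTCH3 (0.91 to 1.25), 0.74 for HEY1 (0.42 to 1.05) and -0.47 for JAG2 (-0.67 to -0.26). These 7 differences kept their call in every setting tried. The largest limma adjusted p of the 7 was 0.00127, for JAG2. Stage and exposure to the compound cannot be told apart in these differences.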

How the results depend on the processing

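Of the 50 values (10 genes in 5 comparisons), 41 were called, and 35 of these kept direction and call in all settings. Of all genes, 50.9% to 72.7% were called per comparison. The 5 comparisons use the same 4 groups, so the 50 values are not separate results. The number of genes called with the inhibitor at 60h was 8 and became 5 with median-of-ratios scaling, and it ranged from 5 to 8 when 1 library was left out, the 5 being without control 60h replicate 1. The other counts ranged, without 1 library, from 8 to 10 (inhibitor at 0h), 7 to 8 (stage, control cells), 9 to 9 (stage, treated cells) and 7 to 8 (difference of responses). For all genes, the called numbers ranged from 6670 to 7222 (inhibitor at 0h) and 7822 to 8337 (inhibitor at 60h). They ranged from 7240 to 7796 (stage, control cells), 7981 to 8418 (stage, treated cells) and 5455 to 5756 (difference of responses). Over all groups, deviations of libraries with the same replicate number correlated weakly, from -0.0935 to 0.0820. None of 18 was over 0.1, and 14 of 36 best matches, each picked among 3 libraries, were with the own number. Between inhibitor 0h and 60h the same numbers had 0.0820, 0.0156 and 0.0700, and other numbers -0.0787 to 0.00806. Between control 0h and 60h the same numbers had 0.0566, -0.0265 and 0.0696, and other numbers -0.0973 to 0.0405. Correlations this weak cannot tell whether libraries shared a culture. With the replicate block, the members called were 9, 8, 8, 9 and 7 in the 5 comparisons, as without it, and of all genes 5098 were higher and 2084 lower at 0h, against 5148 and 2102.

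Median-of-ratios scaling moved the median of all genes by 0.12 at 0h and 0.11 at 60h, and the share of calls that were higher from 71% to 48.6% and from 62.4% to 48.4%. With the stage, TPM scaling moved that share from 43.1% to 53.3% in control cells and from 43% to 54.6% in treated cells. Under median-of-ratios scaling the sign turned for NOTCH2 with the inhibitor (-0.0294 at 0h, -0.0326 at 60h) and with the stage (0.0496 in control, 0.0464 in treated cells), for NOTCH3 at 60h (-0.0290) and for the EP300 difference of responses (0.0040). Under TPM scaling it turned for NOTCH2 with the stage (0.0709 in control, 0.0898 in treated cells, there called with an adjusted p of 0.0225) and for the differences of responses of NOTCH2 (0.0190), EP300 (0.0257) and NEURL1 (0.0789). That of NEURL1 also turned with the pseudocount of 0.1 (0.117) and with recovered reads (0.101). Leaving out 1 library turned values near 0, whose ranges were -0.0351 to 0.00817 for NOTCH2 with the stage in control cells and, for the difference of responses, -0.0334 to 0.00995 for NOTCH2, -0.0445 to 0.185 for HES1, -0.0593 to 0.0255 for EP300 and -0.0679 to 0.00164 for NEURL1. The cause of these changes was not tested. Of the 10 genes, HEY1 had the fewest reads in total, with 41 to 112 per library.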
